A study of Mus musculus with 4 samples.

Results

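The genes described here are the mouse Zfp genes, whose symbols stand for zinc finger protein, and the measurement is chromatin accessibility at their promoters. Members were all protein-coding genes with a symbol of Zfp followed by a number whose accessible region had its centre within 2500 bp of the transcription start. The rule used no signal value. It found 179 genes in all. Of these, 62 genes with 63 of 5727 regions were in the table of the Kindlin-2 cells, and 176 genes with 178 of 28445 regions were in the table of the Rela cells. Both tables held 59 of the genes, which is 95.2% of the Kindlin-2 set and 33.5% of the Rela set.

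Accessibility was measured by ATAC-seq, in which the Tn5 transposase inserts adapters into open chromatin. The 4 genotypes were Kindlin-2 K.O. and Kindlin-2 floxed fibroblasts from kidney, and Rela K.O. and Rela wt fibroblasts of the embryonic line 3T3, all at passage 15 to 20. Kindlin-2 is an adaptor that activates integrins, and Rela is the p65 subunit of NF-kB. The labels do not give the Cre that removed Kindlin-2, the Rela allele, or whether a line is 1 clone. The study gives 2 biological replicates per genotype, yet each genotype had 1 column of values, so differences could not be checked against replicates and no p-value is given.

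Zinc finger proteins of this family bind DNA through tandem C2H2 fingers, in which a pair of cysteines and a pair of histidines hold a zinc ion. Many carry a KRAB domain, which recruits the corepressor TRIM28 (KAP1) and through it the histone methyltransferase SETDB1 and heterochromatin protein 1, and are known for silencing retroelements. KRAB zinc finger genes arose by tandem duplication and lie in clusters, so that neighbouring genes are often close copies. The Zfp symbol also covers a few genes of other kinds, such as Zfp36l2, whose CCCH fingers bind AU-rich mRNA.

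Promoter sequences of 9 genes follow, 250 bases upstream of the start on the strand of the gene, from RefSeq on GRCm38.p6. Capitals mark, on either strand, the CCAAT box (CCAAT), the GC box (GGGCGG) and the ETS site (CCGGAAG). The first pair lies in a chromosome 7 cluster whose 8 measured members all had more signal in Rela K.O. cells, 4 of them at least 2-fold. These are Zfp787 at chr7:6155966-6156215 and Zfp772 at chr7:7209999-7210248, both on the minus strand. The next pair lies in a chromosome 17 cluster whose 8 measured members all had less signal in Rela K.O. cells, 5 of them at least 2-fold. These are Zfp871 at chr17:32788288-32788537 and Zfp101 at chr17:33394638-33394887, both on the minus strand.
Zfp787: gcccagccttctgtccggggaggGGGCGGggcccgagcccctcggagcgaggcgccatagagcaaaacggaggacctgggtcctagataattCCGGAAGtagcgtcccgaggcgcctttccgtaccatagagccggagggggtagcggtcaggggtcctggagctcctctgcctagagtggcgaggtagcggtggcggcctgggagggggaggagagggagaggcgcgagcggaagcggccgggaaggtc
Zfp772: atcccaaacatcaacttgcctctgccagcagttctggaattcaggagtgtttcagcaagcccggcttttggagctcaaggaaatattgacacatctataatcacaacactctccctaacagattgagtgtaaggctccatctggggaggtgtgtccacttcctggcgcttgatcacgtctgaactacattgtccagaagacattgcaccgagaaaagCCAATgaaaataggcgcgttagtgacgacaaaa
Zfp871: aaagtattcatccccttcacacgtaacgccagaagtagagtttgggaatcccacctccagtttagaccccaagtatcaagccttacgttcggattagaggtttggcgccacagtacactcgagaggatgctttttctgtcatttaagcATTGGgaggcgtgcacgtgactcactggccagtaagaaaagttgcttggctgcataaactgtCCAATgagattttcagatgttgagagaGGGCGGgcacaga
Zfp101: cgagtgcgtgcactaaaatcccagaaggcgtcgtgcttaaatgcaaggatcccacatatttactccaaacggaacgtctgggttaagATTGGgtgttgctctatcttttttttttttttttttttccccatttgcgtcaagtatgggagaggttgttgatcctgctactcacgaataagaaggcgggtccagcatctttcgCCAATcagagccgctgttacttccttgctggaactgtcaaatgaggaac
The window of Zfp787 held 1 GC box and 1 ETS site, while that of Zfp772 held 1 CCAAT box. The window of Zfp871 held 2 CCAAT boxes and 1 GC box, and that of Zfp101 held 2 CCAAT boxes.

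The following 3 promoters are close copies from 1 cluster on chromosome 2 that gave unlike values in the Rela pair. Zfp970 lies at chr2:177464492-177464741 and Zfp971 at chr2:178023034-178023283, both on the plus strand, and Zfp972 at chr2:177925651-177925900 on the minus strand.
Zfp970: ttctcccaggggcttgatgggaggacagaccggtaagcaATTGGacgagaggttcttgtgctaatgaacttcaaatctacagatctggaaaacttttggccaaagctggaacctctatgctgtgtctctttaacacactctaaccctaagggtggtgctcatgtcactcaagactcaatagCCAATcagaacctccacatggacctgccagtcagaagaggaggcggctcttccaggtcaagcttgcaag
Zfp971: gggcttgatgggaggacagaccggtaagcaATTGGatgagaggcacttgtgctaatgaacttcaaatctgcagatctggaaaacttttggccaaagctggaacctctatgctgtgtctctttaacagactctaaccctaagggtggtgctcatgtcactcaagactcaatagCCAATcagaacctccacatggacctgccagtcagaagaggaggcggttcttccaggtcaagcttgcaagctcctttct
Zfp972: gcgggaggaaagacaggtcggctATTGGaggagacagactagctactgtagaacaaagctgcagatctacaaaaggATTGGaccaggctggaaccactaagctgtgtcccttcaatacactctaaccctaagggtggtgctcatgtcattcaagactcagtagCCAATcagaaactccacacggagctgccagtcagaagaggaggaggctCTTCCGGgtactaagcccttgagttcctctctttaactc
The full windows of 300 bases of Zfp970 and Zfp971 were 94.7% identical, and those of Zfp971 and Zfp972 77.3%. Zfp970 and Zfp971 held 2 CCAAT boxes each, and Zfp972 held 3 and an ETS site.

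The last pair passed 2-fold in the same direction in both knockouts. Zfp69 lies at chr4:120951689-120951938 on the minus strand and Zfp112 at chr7:24112070-24112319 on the plus strand.
Zfp69: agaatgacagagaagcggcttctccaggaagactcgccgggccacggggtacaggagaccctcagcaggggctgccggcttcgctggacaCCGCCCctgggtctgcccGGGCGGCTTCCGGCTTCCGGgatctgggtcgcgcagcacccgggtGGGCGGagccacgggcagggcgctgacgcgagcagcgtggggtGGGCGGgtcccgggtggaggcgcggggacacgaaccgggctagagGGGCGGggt
Zfp112: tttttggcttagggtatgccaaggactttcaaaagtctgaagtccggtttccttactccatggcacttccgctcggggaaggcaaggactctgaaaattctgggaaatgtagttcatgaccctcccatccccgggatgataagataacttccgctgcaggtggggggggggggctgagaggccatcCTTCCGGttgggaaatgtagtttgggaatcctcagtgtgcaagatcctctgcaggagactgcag
Zfp69 held 5 GC boxes and 2 ETS sites, with an ETS site directly against a GC box, while Zfp112 held 1 ETS site and no GC or CCAAT box.

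Measured Zfp promoters differed in base composition from other measured promoters. RefSeq windows of 300 bases, which run to 50 bases past the start, were found for 148 of the 176 Zfp genes of the Rela table. Their median was 13 CpG dinucleotides and 54% G and C, against 22 and 62.3% in 4767 other measured protein-coding promoters. Over all 32851 RefSeq windows the medians were 7 CpG and 52.7%. In the Kindlin-2 table, 52 Zfp windows had a median of 13.5 CpG, against 24 in 1746 others.

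Short motifs also differed in their shares. On either strand, 42.6% of Zfp windows held a GC box, against 72.7% of the other measured windows and 35.7% of all windows. A CCAAT box was in 56.1% of Zfp windows, against 44.0% of the others and 37.4% of all. The ETS letters were in 23.0% of Zfp windows, 19.3% of others and 8.86% of all. The NF-kB motif was in 5 of 148 Zfp windows (3.38%) in 1.76% of others and in 1.63% of all. These shares describe letters only, and say nothing of binding.

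**Figure D1:**
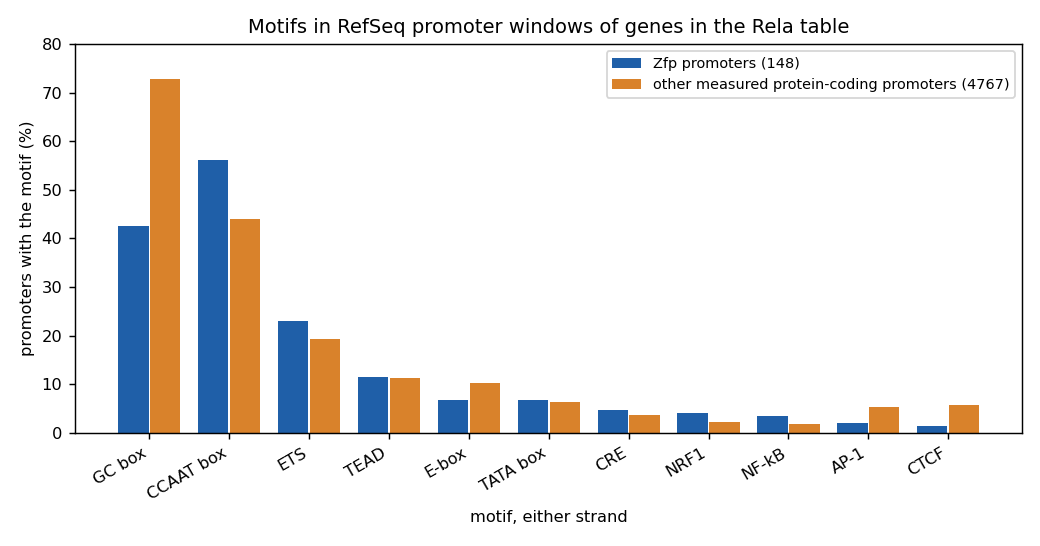
Share of RefSeq promoter windows, in percent, that hold each of 11 motifs on either strand, for 148 Zfp promoters and 4767 other measured protein-coding promoters of the Rela table. The GC box stands lower in Zfp promoters (42.6% against 72.7%) and the CCAAT box higher (56.1% against 44.0%).

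All values are the authors' normalized signal, which is comparable only within a table. Nuclear signal summed to 114217 for Kindlin-2 K.O. and 134996 for Kindlin-2 floxed, and to 1458609 for Rela K.O. and 1386832 for Rela wt. Median signals of all regions were 35 for Rela K.O., 34 for Rela wt, and 16 for either Kindlin-2 column. The counts implied by the spacing of the values were 36.9 for a median region in Rela K.O. and 49.8 in Rela wt. They were 11.8 in Kindlin-2 floxed and 16 in Kindlin-2 K.O., where the depth could not be recovered. By these counts the Rela table is the firmer one, though that of Kindlin-2 K.O. is uncertain. No region was assigned to Fermt2, the Kindlin-2 gene, and the Rela promoter held 27 in Rela K.O. and 21 in Rela wt cells, which does not check a deletion. Of 13 fibroblast markers, 7 had a promoter region in the Rela table (summed signal 425 in Rela K.O. and 341 in Rela wt), with Vim at 108 and 110. Of these 7, S100a4 (133 and 46) and Fbln1 (29 and 12) were past 2-fold higher and Dpt (8 and 23) was past 2-fold lower in Rela K.O. cells. Of 7 epithelial markers, 2 did (26 and 10), Krt19 at 19 and 8 and Cdh16 at 7 and 2. A region was found for 1 of 3 leukocyte markers (Cd68, 12 and 14) and for 0 of 3 endothelial markers. Of all these markers, Fn1 alone had a promoter region in the Kindlin-2 table (12 in Kindlin-2 K.O. and 26 in Kindlin-2 floxed). No measured marker was at 0. The part of these markers in the Zfp values was not tested.

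Zfp promoters were measured more often than other promoters. Of 397 Zfp symbols in RefSeq, 15.6% had a promoter region in the Kindlin-2 table, against 10.7% of other protein-coding symbols. In the Rela table the share was 44.3%, against 29.7% of others. Among other zinc finger families, 53.7% of 41 Zbtb genes and 64.7% of 17 Klf genes were measured in the Rela table, and 37.0% of the 27 Zscan and Zkscan genes. Most Zfp regions lay close to the start, with 93.7% of the Kindlin-2 regions and 92.7% of the Rela regions within 500 bp. No Zfp promoter was at 0 in either genotype of either pair, and none was removed by the filter on low signal.

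At the edge of the 2500 bp window, the farthest regions inside lay 2204 bp from the start in the Kindlin-2 table and 2250 bp in the Rela table. Just outside in the Rela table, a region 2525 bp from the start of Zfp219 held 28 in Rela K.O. and 41 in Rela wt cells. A region 2643 bp from the Zfp787 start held 30 in Rela K.O. and 3 in Rela wt cells (exact 95% interval of the ratio, for counting error alone, 3.94 to 43.3), and one 2698 bp from the Zfp667 start held 70 and 20. In all, 20 Zfp regions of the Rela table and 0 of the Kindlin-2 table lay outside. One of them, 3859 bp from the start of Zfp445, a KRAB gene that guards imprinted methylation, held 6 in Rela K.O. and 34 in Rela wt cells.

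The first comparison asked how Zfp promoters differ between cells without Kindlin-2 and floxed cells. Of 62 genes, 6 were at least 2-fold higher in Kindlin-2 K.O. cells and 6 at least 2-fold lower, which is 9.68% each. Over all 2357 protein-coding promoters of that table, 8.27% were higher and 10.9% lower, so the Zfp shares stood near the background. The difference is given as a log2 ratio, log2((K.O. + 1)/(control + 1)), averaged over the promoter regions of a gene. Its median was 0.00 over the Zfp genes and -0.17 over all promoters, and its SD between genes was 0.77 and 0.82. Signals ran from 4 to 91 in Kindlin-2 K.O. and from 1 to 106 in Kindlin-2 floxed cells. After quantile normalization 2 Zfp genes were higher and 7 lower, and after loess centring 2 and 6, so the number of higher calls depended on the scaling. Over all promoters, 4.58% were higher and 11.9% lower after quantile normalization, and 3.65% and 9.93% after loess centring.

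The 6 promoters higher in Kindlin-2 K.O. cells had low signals. Zfp112 held 11 in Kindlin-2 K.O. and 1 in Kindlin-2 floxed cells, a log2 ratio of 2.58, and an interval of the ratio of 1.18 to 348. The intervals take Kindlin-2 K.O. values as counts, because their depth could not be recovered. Zfp932, a KRAB gene that represses endogenous retroviruses in mouse embryonic stem cells, held 25 and 10 (log2 ratio 1.24, interval of the ratio 1.10 to 7.19). For both of these the interval lay above 1. The others were Zfp994 (9 and 3, interval 0.684 to 31.4), Zfp937 (14 and 5), Zfp971 (17 and 7) and Zfp808 (10 and 4), and their intervals included 1.

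Among promoters lower in Kindlin-2 K.O. cells, Zfp2 on chromosome 11 (50915762 to 50916024, 272 bp from the start) stood out with 5 in Kindlin-2 K.O. and 34 in Kindlin-2 floxed cells. Its log2 ratio was -2.54, and the interval of the ratio was 0.0439 to 0.391. Zfp639 held 18 and 42 (log2 ratio -1.18, interval 0.225 to 0.787). Zfp64, whose human counterpart drives expression of the MLL gene in leukaemia, held 24 and 50 (log2 ratio -1.03, interval 0.273 to 0.818). These 3 intervals lay below 1. Zfp28 (4 and 12), Zfp664 (8 and 19) and Zfp69 (8 and 18) were also past 2-fold lower, with intervals that included 1.

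Most of the better measured Zfp promoters lay within 2-fold in this pair. Of the 8 highest log2 ratios among genes with at least the median Zfp signal, the first was that of Zfp51, with 29 in Kindlin-2 K.O. and 18 in Kindlin-2 floxed cells (log2 ratio 0.66). The rest were Zfp677, Zfp942, Zfp708, Zfp386, Zfp712, Zfp935 and Zfp444, from 0.37 down to 0.16. Of the 8 lowest, Zfp2, Zfp639 and Zfp64 passed 2-fold, and Zfp248, Zfp68, Zfp317, Zfp748 and Zfp961 ran from -0.78 to -0.50. The Zfp promoter with most signal, that of Zfp960, held 91 and 106.

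The genes were also described by their clusters, runs of at least 3 measured Zfp promoters with gaps of at most 1 Mb. The Kindlin-2 table had 4 such clusters with 22 genes. The largest, 11 genes on chromosome 17 from Zfp160 to Zfp213, had a median log2 ratio of 0.32, with 8 genes above 0 and 2 below. Regions of that chromosome had a median of -0.19, and 7 other promoters within 1 Mb of the cluster -0.51, while the 3 regions without a gene inside its span had 0.83, all above 0. The chromosome 2 cluster of Zfp120, Zfp937 and Zfp442 was the only one of the 4 with every gene on the same side of 0, at a median of 0.45. On chromosome 7, the cluster from Zfp444 to Zfp28 had a median of -0.40, and on chromosome 13 that of Zfp712, Zfp708, Zfp748 and Zfp273 had 0.25.

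The second comparison asked how Zfp promoters differ between cells without Rela and Rela wt cells. Of 176 genes, 19 (10.8%) were at least 2-fold higher in Rela K.O. cells and 23 (13.1%) at least 2-fold lower. Over all 6573 protein-coding promoters the shares were 11.0% higher and 11.2% lower, so the family as a whole again stood near the background. The median log2 ratio was -0.12 over the Zfp genes, or 0.11 relative to chromosome medians, and -0.03 over all promoters, with an SD between genes of 0.89 and 1.05. The 19 single regions that were 2-fold higher all had an interval of the ratio above 1, and the 24 that were 2-fold lower all had one below 1. Other zinc finger families had few members: of 22 Zbtb genes 2 were higher and 2 lower, of 11 Klf genes 1 and 1, and of 10 Zscan and Zkscan genes 0 and 3.

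**Figure D2:**
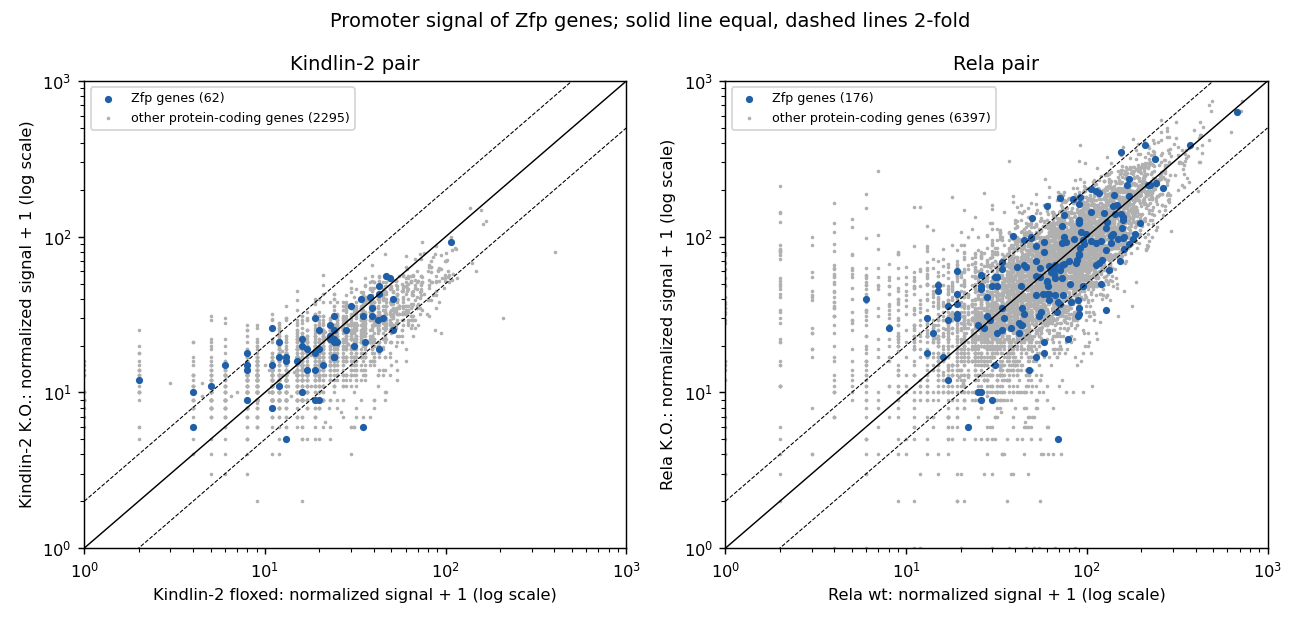
Normalized signal + 1 at promoters, knockout on the vertical and control on the horizontal axis, both log scales, for the Kindlin-2 pair (left) and the Rela pair (right), with Zfp genes over the other protein-coding genes. Most Zfp genes lie between the dashed 2-fold lines. By gene mean log2 ratio, 6 of 62 were higher and 6 lower in the Kindlin-2 pair. In the Rela pair 19 of 176 were higher and 23 lower. Of the 23, Zfp760 is drawn between the lines, because points show mean signals (93.5 in Rela K.O. and 105 in Rela wt). Its log2 ratio of -1.48 is a mean over 2 regions.

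Values of the Rela pair differed with the position of the genes. The Rela table had 17 clusters holding 105 of the 176 genes. In 11 of the 17 clusters every Zfp promoter lay on the same side of 0, in 5 above and in 6 below. Of the 42 genes past 2-fold, 31 were among the 105 in clusters (13 higher and 18 lower) and 11 among the 71 outside (6 higher and 5 lower). Over all promoters 22.2% were past 2-fold in either direction. Other promoters varied with position too: on chromosome 8, 26% were higher and 0.964% lower, and on chromosome 13, 2.35% and 31.4%. The SD of the log2 ratio was 0.96 over all clustered genes and 0.71 within clusters. Medians of whole chromosomes also ran apart, between -0.79 on chromosome 13 and 0.61 on chromosome 8.

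**Figure D3:**
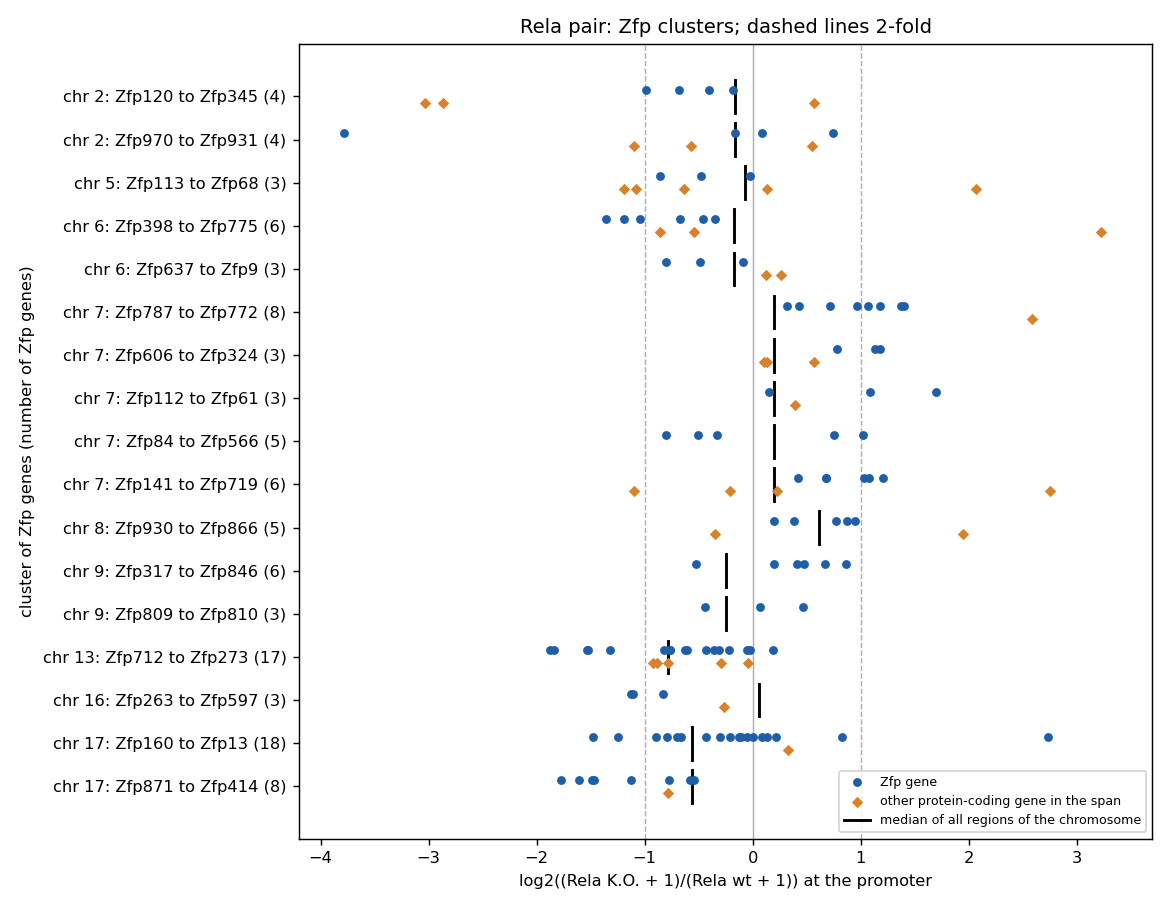
Log2 ratio at each Zfp promoter of the 17 clusters of the Rela pair, with other protein-coding promoters inside the same span and the median of all regions of the chromosome. The 8 genes from Zfp787 to Zfp772 on chromosome 7 all lie above 0 and the 8 from Zfp871 to Zfp414 on chromosome 17 all lie below.

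Chromosome 7 held 13 of the 19 promoters that were higher in Rela K.O. cells. Of its 29 Zfp genes, 25 lay above 0 and 1 was 2-fold lower, and their median log2 ratio was 0.78. The 317 other promoters of chromosome 7 had a median of 0.21, with 11.7% higher. All but 1 of the 29 Zfp genes lay between 5020144 and 43580283. In that stretch the 28 Zfp promoters had a median of 0.87 with 46.4% higher, and the 94 other promoters had 0.37 with 13.8% higher. Regions without an assigned gene in the stretch had a median of 0.69, against 0.03 past its end. The other promoters past its end had a median of 0.05. Promoters before 5020144 were in neither set. In the first 10 Mb, the 16 other promoters had a median of 1.44, with 9 past 2-fold higher.

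The first chromosome 7 cluster ran over 8 genes between 6155019 and 7210167, and its median log2 ratio was 1.01. Zfp787 held 157 in Rela K.O. and 59 in Rela wt cells (log2 ratio 1.40), Zfp772 held 100 and 38 (1.37), Zfp78 held 348 and 153 (1.18) and Zfp954 held 175 and 83 (1.07). These 4 were past 2-fold, with intervals of the ratio from 1.66 at the lowest bound to 3.67 at the highest. Zfp418 (36 and 18), Zfp444 (191 and 116), Zfp667 (69 and 51) and Zfp28 (90 and 72) were higher by less. The region 2698 bp from the Zfp667 start and the one 2643 bp from the Zfp787 start, outside the window, were higher as well.

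The neighbours of this cluster were raised too. The imprinted zinc finger gene Zim1, the only other protein-coding gene measured inside the span, had a log2 ratio of 2.58. In the first 10 Mb of chromosome 7, 9 Zfp promoters had a median of 0.96 and 16 other promoters a median of 1.44, and all 25 were above 0. The other promoters there were raised at least as much as the Zfp promoters.

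Another 3 chromosome 7 clusters were also wholly above 0, on a chromosome whose regions had a median of 0.20. Zfp606, Zfp110 and Zfp324 had a median of 1.13, and Zfp110 held 56 in Rela K.O. and 25 in Rela wt cells. The 3 other promoters inside that span, among them the zinc finger genes Znf8 and Zscan22, had a median of 0.13. Zfp112, Zfp235 and Zfp61 had a median of 1.08, with Zfp61 at 25 and 7. The 6 genes from Zfp141 to Zfp719 had a median of 0.85, the 4 other promoters in their span had 0.01, and the 4 regions of that span without a gene had 1.30, all above 0. Centred on regions within 1 Mb, that cluster had a median of 0.11. Zfp715 held 94 and 44, Zfp976 held 99 and 48, and Zfp141 held 29 and 12. Of the 4 other promoters in the last span, 1 was past 2-fold higher and 1 past 2-fold lower. The fifth cluster of the chromosome, Zfp84 to Zfp566, was mixed, with 3 of 5 genes below 0, and Zfp566 past 2-fold higher at 68 and 33. The single most elevated of the well measured Zfp promoters, Zfp619 at 39517474 to 39518139, held 131 in Rela K.O. and 49 in Rela wt cells (log2 ratio 1.40, interval 1.99 to 3.59) and lay in no cluster.

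**Figure D4:**
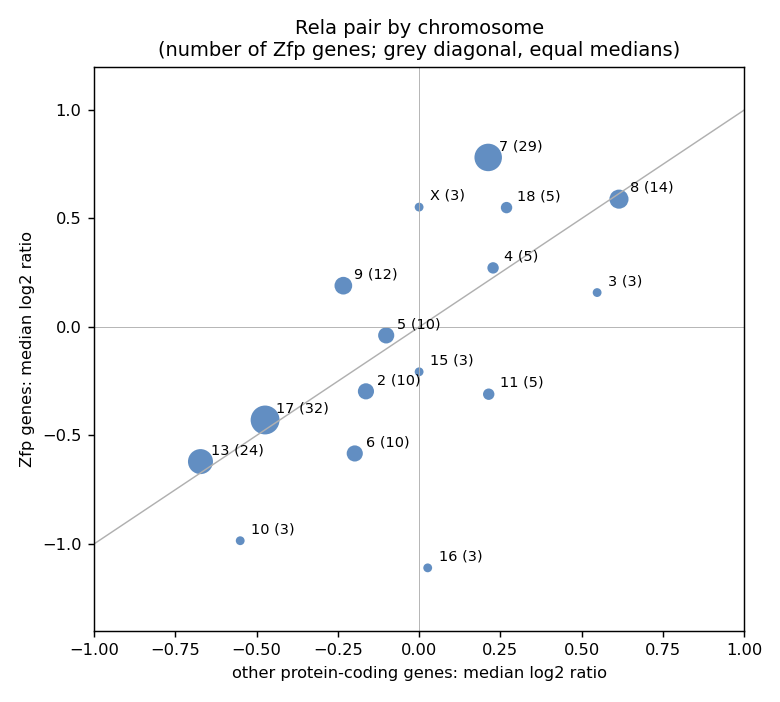
Median log2 ratio of Zfp genes (vertical) and of other protein-coding genes (horizontal) of the same chromosome in the Rela pair, for chromosomes with at least 3 Zfp genes, with the number of Zfp genes in brackets and as point area. Chromosomes 8, 13 and 17 lie near the diagonal, while chromosome 7 lies above it (0.78 against 0.21) and chromosome 16 below it (-1.11 against 0.03).

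On chromosome 17 the 8 genes from Zfp871 to Zfp414 (32788095 to 33629703) all lay below 0, with a median log2 ratio of -1.30 and 5 past 2-fold lower. Of the 327 other promoters of the chromosome, 19.6% were past 2-fold lower, and between 30 and 40 Mb it was 19 of 65. Zfp871 held 13 in Rela K.O. and 47 in Rela wt cells (interval of the ratio 0.147 to 0.506), Zfp799 held 16 and 51, and Zfp472 held 31 and 89. Zfp101 held 20 and 57, and Zfp414 held 60 and 132. Zfp81 (65 and 112), Zfp563 (27 and 41) and Zfp763 (25 and 37) were within 2-fold. Regions of chromosome 17 had a median of -0.56, and 21 other promoters within 1 Mb of the cluster had -0.90, so the neighbourhood was low as well.

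The larger chromosome 17 cluster, 18 genes from Zfp160 to Zfp13, behaved otherwise. Its median was -0.17, above the chromosome median of -0.56, with 5 genes above 0 and 12 below. Among its stronger promoters, Zfp53 held 182 in Rela K.O. and 171 in Rela wt cells and Zfp948 held 215 and 223. It also held the extreme at the upper end, Zfp13, with 39 in Rela K.O. and 5 in Rela wt cells (log2 ratio 2.74, interval of the ratio 3.62 to 21.5), 356 bp from the start at 23598865 to 23599397. Zfp994 held 49 and 118 (log2 ratio -1.25). Zfp760 and Zfp160 had 2 promoter regions each, and these did not match. The main Zfp760 region held 185 and 188, while a small one 1181 bp from the start held 2 and 22 (interval of the ratio 0.0101 to 0.340). The gene mean of -1.48 thus rests on the small region, since the main region alone gave -0.02. The main Zfp160 region held 113 and 104, and a small one 990 bp from the start held 7 and 25.

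Chromosome 13 held the densest group, 17 genes from Zfp712 to Zfp273 within 753.7 kb. In 16 of the 17 the signal was lower in Rela K.O. cells, with a median log2 ratio of -0.63 and 5 past 2-fold. Of the 255 other promoters of the chromosome, 31.4% were past 2-fold lower, so the count was near that background. Zfp85 held 21 in Rela K.O. and 78 in Rela wt cells, Zfp429 held 5 and 21, and Zfp874a held 30 and 88. Zfp729b (8 and 25) and Zfp456 (9 and 24) were the other 2. Zfp58 alone lay above 0 (96 and 84). The median of the group was not below that of its chromosome, -0.79, nor that of the 5 other promoters in its span, -0.78. These 5 included Znf728, a zinc finger gene by its symbol, so they are not a background free of such genes.

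Smaller clusters with every gene on the same side of 0 were on chromosomes 16, 6, 2, 5 and 8. On chromosome 16, Zfp263, Zfp174 and Zfp597 had a median of -1.11, against 0.05 for the chromosome and -0.45 for 14 other promoters within 1 Mb. Zfp174 held 69 in Rela K.O. and 152 in Rela wt cells, Zfp597 held 37 and 81, and Zfp263 held 103 and 184. On chromosome 6, the 6 genes from Zfp398 to Zfp775 had a median of -0.86, against -0.17 for the chromosome but -0.84 for 12 other promoters within 1 Mb. Zfp282 held 34 and 89, Zfp956 held 38 and 88, and Zfp212 held 32 and 67. Zfp120 to Zfp345 on chromosome 2, Zfp113 to Zfp68 on chromosome 5 and Zfp637 to Zfp9 on chromosome 6 had medians of -0.55, -0.48 and -0.49, where the chromosomes had -0.16, -0.07 and -0.17. Centred on regions within 1 Mb, these clusters had medians of -0.69, 0.07 and 0.44, in the same order. On chromosome 8 the 5 genes from Zfp930 to Zfp866 had a median of 0.77, close to the 0.61 of the chromosome. On chromosome 9, Zfp317 to Zfp846 had a median of 0.44 with 5 of 6 above 0, and the chromosome had -0.24. Between 20 and 30 Mb of it, the 8 Zfp genes had a median of 0.33 and the 65 regions without a gene had 0.32. The 34 other promoters there had a median of 0.

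With every log2 ratio taken relative to the median of its chromosome, 12 Zfp promoters were at least 2-fold higher in Rela K.O. cells and 13 at least 2-fold lower, and 6 clusters were one-sided. Over all protein-coding promoters taken the same way, 9.2% were higher and 8.37% lower. Relative to the regions within 1 Mb that carried no Zfp gene, 4 clusters were one-sided. Where fewer than 5 such regions lay within 1 Mb, the chromosome median was used. Under that scaling Zfp619 turned to -2.77 and Zfp78 to -0.30, and Zfp787 stood at 0.05. The part of the surroundings in the Zfp values was not tested further.

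Close copies were compared with each other. Among 148 Zfp windows, 25 pairs were at least 70% identical, all on the same chromosome and 18 within a cluster. Zfp970 held 86 in Rela K.O. and 51 in Rela wt cells and Zfp971 held 66 and 74, with nearly the same sequence. Zfp972 held 4 and 68, a log2 ratio of -3.79 and an interval of the ratio of 0.0149 to 0.147, the lowest of all Zfp genes. Zfp758 and Zfp943, 97.3% identical, had log2 ratios of 0.00 and -0.11, Zfp119a and Zfp959, 94.0% identical, had -0.25 and -0.42, and Zfp874a and Zfp874b, 79.7% identical, had -1.52 and -0.36. The median difference in log2 ratio, taken without sign, was 0.62 over the 25 pairs and 0.58 over other pairs of the same cluster. How reads that match more than 1 copy were counted is not given in the sources used here, so values of such genes are uncertain.

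Outside the clusters, Zfp69 on chromosome 4 had the lowest log2 ratio among well measured Zfp promoters. It is a KRAB gene whose mouse alleles have been linked to diabetes, and it held 33 in Rela K.O. and 126 in Rela wt cells (log2 ratio -1.90, interval of the ratio 0.179 to 0.381). Zfp217, the counterpart of a human breast cancer oncogene, held 17 and 57 (-1.69). On the higher side, Zfp292 held 48 and 14 (1.71), Zfp397 held 59 and 18 (1.66), Zfp454 held 44 and 14 (1.58), and Zfp1 held 177 and 70 (1.33). Zfp90, at 97 and 48, sat exactly on the 2-fold line and was counted as higher. Zfp873 (47 and 94) and Zfp825 (82 and 160) were also low, as was Zfp937 of the chromosome 2 cluster (47 and 94). Their log2 ratios of -0.98, -0.96 and -0.98 include the pseudocount and fell short of -1.

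Genes with described roles were read against the 22.2% of all promoters past 2-fold in either direction in the Rela pair. Of 6 KRAB genes known for silencing retroelements or imprinted loci in mouse, 5 were measured and 0 passed 2-fold, at a median log2 ratio of 0.07 beside the -0.03 over all promoters. Zfp809, which recognises the primer binding site of murine leukaemia virus, held 64 in Rela K.O. and 61 in Rela wt cells, and Zfp57, which protects imprinted methylation, held 75 and 89. Zfp568, a repressor of a placental Igf2 promoter, held 31 and 18, Zfp708 held 103 and 139, and Zfp932 held 79 and 57. Of 17 regulators that bind promoters or chromatin, 8 were measured at a median of -0.21, and Zfp217 alone was past 2-fold. Zfp827 held 161 and 89 (0.85) and Zfp263 held 103 and 184 (-0.83), Zfp219 held 206 and 263, Zfp64 213 and 216, Zfp24 69 and 79, Zfp384 55 and 51, and Zfp740 29 and 34.

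Other roles had 1 or 2 measured genes each. Of the mRNA decay genes Zfp36, Zfp36l1 and Zfp36l2, the last was measured, with 97 in Rela K.O. and 158 in Rela wt cells (log2 ratio -0.70, interval of the ratio 0.481 to 0.778). Zfp91, whose human counterpart acts as a ubiquitin ligase on the NF-kB-inducing kinase, held 387 and 210 (0.88, interval 1.59 to 2.15). Zfp326, part of a complex that links transcription to splicing, held 100 and 135. Zfp703 had the strongest Zfp promoter of the table, 628 and 673, and the pluripotency factor Zfp322a held 123 and 128. In the Kindlin-2 table, Zfp91 averaged 19 in Kindlin-2 K.O. and 15 in Kindlin-2 floxed cells, Zfp462 held 15 and 12, Zfp322a 17 and 18, Zfp24 15 and 14, and Zfp708 35 and 29.

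Genes of the KRAB silencing machinery were set beside the Zfp genes. Of 30 listed partners, 15 had a promoter region in the Rela table and 0 passed 2-fold in either direction, beside 22.2% of all promoters, at a median log2 ratio of -0.41 beside -0.03 over all promoters. They ran from 0.95 for Rbbp7 (92 in Rela K.O. and 47 in Rela wt cells) to -0.76 for Mta2 (28 and 48), both subunits of the NuRD deacetylase complex. Of the 30, 5 were measured in the Kindlin-2 table at a median of 0.32, beside -0.17 over all promoters. The deacetylase gene Hdac2 alone reached 2-fold, beside 19.2% of all promoters of that table, at 15 in Kindlin-2 K.O. and 31 in Kindlin-2 floxed cells (interval of the ratio 0.233 to 0.959).

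The 59 genes measured in both tables were set side by side, each within its own pair. Of them, 12 passed 2-fold in the Kindlin-2 pair, 10 in the Rela pair and 3 in both. Over all promoters, 19.2% passed 2-fold in the Kindlin-2 pair and 22.2% in the Rela pair. The overlap over all promoters is not given here, so the 3 genes have no background to be set against. Zfp69 was lower in both knockouts, with 8 in Kindlin-2 K.O. and 18 in Kindlin-2 floxed cells on the one hand, and 33 in Rela K.O. and 126 in Rela wt cells on the other. Zfp112 was higher in both, with 11 and 1 in the Kindlin-2 pair and 35 and 16 in the Rela pair. Zfp994 was higher in Kindlin-2 K.O. (9 and 3) and lower in Rela K.O. cells (49 and 118). The Kindlin-2 intervals of Zfp69 and Zfp994 included 1. Relative to the median of its chromosome, the Rela log2 ratio of Zfp994 was -0.69, short of 2-fold.

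Directions in the pairs were mixed. Of 57 genes with a nonzero ratio in both, 28 had the same sign. Pearson's r over the 59 genes was 0.02 and Spearman's rho -0.09, a description across genes, which are not independent replicates. Of the chromosome 7 cluster from Zfp787 to Zfp772, 4 genes were measured in the Kindlin-2 table. Zfp444 held 47 in Kindlin-2 K.O. and 42 in Kindlin-2 floxed cells, Zfp667 held 7 and 10, Zfp78 held 39 and 50, and Zfp28 held 4 and 12.

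**Figure D5:**
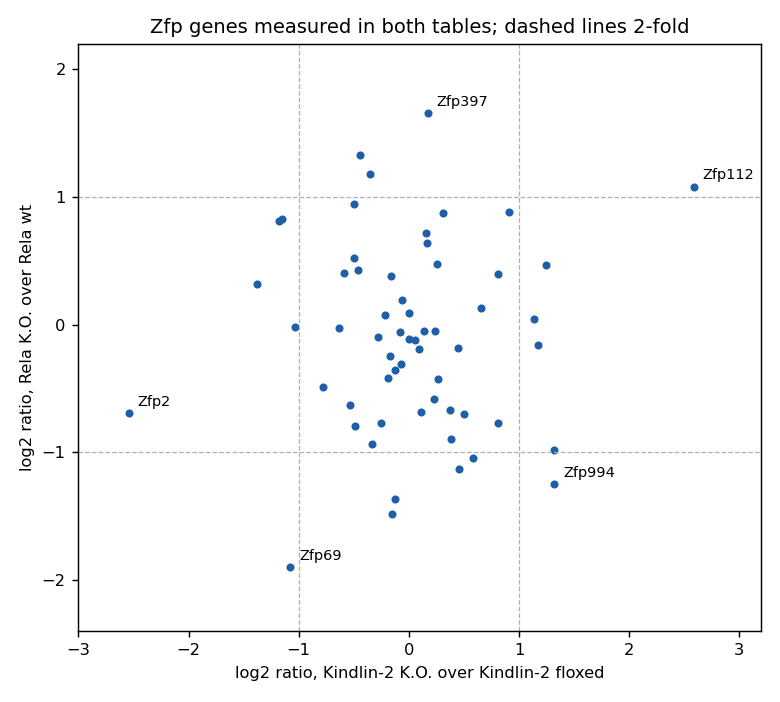
Log2 ratio in the Rela pair (vertical) and in the Kindlin-2 pair (horizontal) for the 59 Zfp genes measured in both tables, with dashed lines at 2-fold. The points spread around 0 on both axes (Pearson's r 0.02), and Zfp69, Zfp112 and Zfp994 lie past 2-fold in both.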

How the data were processed

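ATAC-seq libraries were made from 50000 cells each, per the labels' protocols. Per the submitters' processing notes, which give no roles, the tools were STAR 2.4.2a, MACS2, DESeq2, bedtools, deepTools, Picard 1.136, Trimmomatic 0.33 and FastQC, and the build was mm10. The Tn5 shift, the handling of duplicates and that of reads from near-identical copies are not stated there. For each knockout the authors deposited 1 table with values in score units, called normalized signal here, that were corrected for background, normalized by the DESeq method and rounded, per the labels' name for each table. How the 2 biological replicates of a genotype were combined is not stated. Coordinates of regions are those of the tables, which do not say whether starts count from 0 or 1.

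From these values, log2((K.O. + 1)/(control + 1)) was computed with a pseudocount of 1 for regions with a mean signal of at least 1, and averaged per gene. In counts and shares of genes, "higher" and "lower" mean at least 2-fold. With 1 column per genotype no test was made. Members and lists were chosen with earlier results of these data known. All 179 symbols matched RefSeq genes on GRCm38.p6, whose promoter windows of 300 bases were searched for motifs on both strands and aligned pairwise with Biopython 1.88. Besides the GC box, CCAAT box, ETS and NF-kB, these were TATAAA, the AP-1 site TGANTCA, the CRE TGACGTCA, the E-box CACGTG, the TEAD site GGAATG, and NRF1 and CTCF by name. Named genes were the 8 highest and 8 lowest log2 ratios among genes with at least the median Zfp signal, genes past 2-fold in both pairs, members of clusters with 2 or more genes past 2-fold the same way, and measured genes of the role lists; others past 2-fold were named after their values were seen.

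Depth was recovered from the spacing of whole values. The scale factors were 0.949 for Rela K.O. and 0.683 for Rela wt, where they explained 90.9% and 97.5% of the deviance, and 1.36 for Kindlin-2 floxed (98.5%). For Kindlin-2 K.O. the best factor explained 41.6% and a factor of 1 was used, so its depth is uncertain. A median region thus rested on 36.9 implied counts in Rela K.O. and 49.8 in Rela wt cells, and on 16 in Kindlin-2 K.O. and 11.8 in Kindlin-2 floxed cells. Exact (Clopper-Pearson) 95% intervals of ratios cover counting error only, leaving out the background correction and differences between cultures. The steps were tested on simulated data. Alternatives were other pseudocounts, filters, windows, scalings and cluster gaps. Protein features were not analysed here.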

Additional observations from a re-analysis of the deposited data

How the results depend on the processing

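Counts of Zfp genes past 2-fold in the Kindlin-2 pair rested on low signals. The 6 higher genes became 2 with a pseudocount of 5, with a mean signal of at least 10, after quantile normalization and after loess centring. Over all promoters the share higher fell as well, from 8.27% to 3.9%, 3.54%, 4.58% and 3.65%, in the same order. The 6 lower genes became 2 with a pseudocount of 5, where the share lower over all promoters went from 10.9% to 6.36%. The share of higher among the called Zfp genes was 50% as reported, 28.6% with a mean signal of at least 10, 22.2% after quantile normalization and 25% after loess centring. The shares lower over all promoters in these last settings were 12.3%, 11.9% and 9.93%. The 1 cluster with every gene on the same side of 0 became 0 with a mean signal of at least 10 and 0 relative to chromosome medians.

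In the Rela pair, log2 ratios relative to chromosome medians gave 12 higher and 13 lower genes in place of 19 and 23, a median of 0.11 in place of -0.12, and 6 clusters on the same side of 0 in place of 11. The shares over all promoters fell too, to 9.2% higher and 8.37% lower from 11.0% and 11.2%. Centring on regions within 1 Mb, chosen after seeing the data, gave a median of 0.032 and 4 such clusters, and reversed Zfp619 to -2.77 and Zfp78 to -0.30. Why these values moved was not tested. Single genes were recomputed only for the 8 highest and 8 lowest log2 ratios of each pair among well measured genes. Of these, Zfp2 in the Kindlin-2 pair and Zfp69 and Zfp772 in the Rela pair were past 2-fold in the same direction under every alternative run. The others past 2-fold were not. For Zfp772, fewer than 5 regions without a Zfp gene lay within 1 Mb, and the chromosome median was used instead. Both centrings thus gave it 1.175, and the one within 1 Mb was no separate check of Zfp772. Other genes given by name were not recomputed. With gaps of at most 250 kb or 2 Mb there were 3 or 4 clusters in the Kindlin-2 pair and 17 or 18 in the Rela pair. No paired analysis was possible because each genotype has 1 value column, and no replicate could be left out. Copies with near-identical sequence, the depth of Kindlin-2 K.O. and the differences between cultures limit every value.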
